A study of Yarrowia lipolytica with 4 samples.

Results

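The genes YALI0_F01606g, YALI0_F01628g and YALI0_F01650g of the oil-storing yeast Yarrowia lipolytica lie next to each other on chromosome F. They are 3 of the 6447 protein-coding genes measured. They were chosen by their counts in these libraries, which were far higher in a strain without SUR2, the gene of the C4-hydroxylase of sphingoid bases, than in its parent. Their difference between the strains is therefore described and not tested. The 5 protein-coding genes on each side, taken by position alone, show how far the difference extended and were tested. Both strains were derived from PO1f, a laboratory strain that cannot make its own leucine or uracil, and both carried ku70Δ::tc, a disruption of a gene for joining broken DNA ends. The parent, labelled wild type, carried that disruption alone, and the deletion strain carried sur2Δ::LEU2 as well. The effects of losing SUR2 and of gaining LEU2, a leucine synthesis gene, cannot be told apart. Cells were grown in YPD, a rich medium, at 28 °C to an OD600 of 0.8, and each strain had 2 libraries of polyadenylated RNA.

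Dihydroxyacetone kinase transfers a phosphate to dihydroxyacetone, a small sugar that is toxic to yeast when it accumulates, and so feeds it into glycolysis. Triosephosphate isomerase then interconverts the product with glyceraldehyde 3-phosphate, and glycerol reaches the same point through glycerol kinase and glycerol-3-phosphate dehydrogenase. In Saccharomyces cerevisiae the dienoyl-CoA reductase SPS19 is an auxiliary enzyme of the peroxisome that lets unsaturated fatty acids enter beta-oxidation, the pathway that shortens fatty acids. Yarrowia lipolytica is known for its use of both glycerol and fatty acids as carbon sources.

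One library of each strain was deposited in a transcript table and the other in a gene table, and pairs of values below are in the order transcript table, gene table. Totals ran from 8765729 to 16698719 counts. SUR2 (YALI0_E17347g) had 1402 and 1319 reads in the parent libraries and 0 and 0 in the deletion libraries, as the labels say. Nothing in the labels says that the libraries of a strain were separate cultures, so the p-values cover the spread of these libraries alone, and that spread may be technical. CPM are counts scaled to library size, and TPM are also scaled for gene length, so that only TPM compare different genes within a library. Between libraries TPM carry a shift of scale: in the gene table the median tested gene had a TPM ratio of the deletion to the parent library of 1.73 and a CPM ratio of 1.03, against 1.05 and 0.993 in the transcript table. A value after ± is a standard deviation over 2 libraries beside CPM and a standard error beside a log2 fold change.

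The 3 genes had between 4 and 41 reads in the parent libraries and between 247 and 1052 in the deletion libraries. YALI0_F01606g (chromosome F, 249121 to 250881, minus strand), similar to the dihydroxyacetone kinase DAK1 of Schizosaccharomyces pombe, had 10 and 5 reads in the parent libraries. The deletion libraries held 247 and 373. Both deletion libraries were far above both parent libraries, and the higher of the deletion libraries was that of the gene table, which had the smallest total. Its mean level went from 0.503 ± 0.113 CPM (parent, n = 2) to 26.3 ± 16.8 CPM (deletion strain, n = 2), a 50.6-fold difference (log2 fold change 5.66 ± 0.73).

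YALI0_F01628g (chromosome F, 251320 to 251790, plus strand) resembles a Debaryomyces hansenii gene and has no description of function. Its reads numbered 4 and 7 in the parent libraries, and 294 and 361 in the deletion libraries. The groups did not overlap here either. Both deletion libraries lay above both parent libraries for 22.1% of all tested genes, so nothing is read from this. The parent reads were few. The mean went from 0.413 ± 0.254 CPM (parent, n = 2) to 27.1 ± 14 CPM (deletion strain, n = 2), or 66.6-fold higher (log2 fold change 6.06 ± 0.75).

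YALI0_F01650g (chromosome F, 253652 to 254593, minus strand), weakly similar to SPS19, had 24 and 41 reads in the parent libraries and 924 and 1052 in the deletion libraries. It was the most abundant of the 3 by TPM in each parent library. The mean went from 2.43 ± 1.46 CPM (parent, n = 2) to 80.8 ± 38 CPM (deletion strain, n = 2), or 33.6-fold higher (log2 fold change 5.07 ± 0.62). By size of log2 fold change YALI0_F01628g, YALI0_F01606g and YALI0_F01650g ranked 13, 21 and 30 of the 6051 genes tested, from the highest. All 3 were among the 0.992% of tested genes called higher in the deletion strain by edgeR, from which nothing is read because the same comparison chose them.

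**Figure D1:**
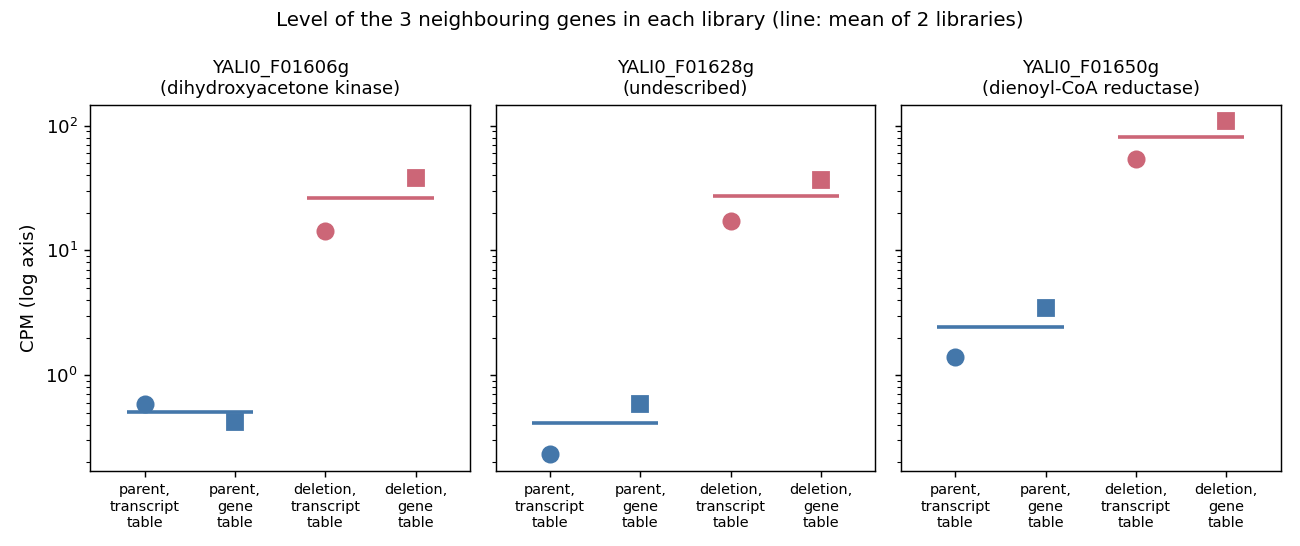
CPM on a log axis of the 3 neighbouring genes in each of the 4 libraries. Circles are libraries of the transcript table, squares those of the gene table, and lines the mean of 2 libraries of a strain. In each panel both deletion libraries lie above both parent libraries, as they do for 22.1% of all tested genes. For YALI0_F01606g they run from 14.4 to 38.2 CPM against 0.423 to 0.583 CPM.

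The size of the difference is known only roughly. The parent reads were few, and the deletion libraries also differed from each other. Within the transcript table the CPM ratio of the deletion to the parent library was 24.7 for YALI0_F01606g, with an exact 95% interval of 13.2 to 52.3. Within the gene table it was 90.2, with an interval of 38.3 to 279.6. The gene table thus gave the larger ratio, and the intervals share only the stretch from 38.3 to 52.3. For YALI0_F01628g the ratios were 73.6 (28.5 to 272.1) in the transcript table and 62.4 (29.97 to 156.3) in the gene table. YALI0_F01650g, with more parent reads, had the narrowest intervals, around ratios of 38.6 (25.8 to 60.5) and 31.0 (22.7 to 43.5). These intervals come from the binomial distribution of reads between 2 libraries and cover counting error only. They do not allow for the choice of the genes by these same counts, so they are no test of the difference.

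Within the deletion strain the 3 genes differed between libraries by similar factors. CPM in the gene table's deletion library were 2.65 times those in the transcript table's for YALI0_F01606g, 2.15 times for YALI0_F01628g and 1.99 times for YALI0_F01650g. Of all tested genes with reads in both deletion libraries, 94.8%, 91.8% and 90.4% had a smaller ratio between these libraries. The gene table's deletion library was the higher one for all 3 genes. In the parent the same ratio was 0.725 for YALI0_F01606g and 2.54 and 2.48 for the other two, on few reads.

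Per length, the undescribed gene and the reductase gene reached almost the same level in the deletion strain and the kinase gene stayed below them. In the transcript table's deletion library TPM were 5.71 for YALI0_F01606g, 40.61 for YALI0_F01628g and 45.32 for YALI0_F01650g. In the gene table's deletion library they were 17.9, 109.11 and 108.37. The undescribed gene thus stood at 7.11 and 6.1 times the kinase gene, and at 0.896 and 1.01 times the reductase gene. In the parent the order was the reductase gene first in both libraries (1.12 and 2.08 TPM), then the undescribed gene (0.51 and 1.03 TPM), then the kinase gene (0.22 and 0.12 TPM). In the deletion strain the levels of the undescribed gene and the reductase gene do not differ beyond the spread between libraries. In the parent the reductase gene's range lay just above that of the undescribed gene, and both lay above the kinase gene.

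Among all protein-coding genes, 5.34% and 5.63% had a lower TPM than YALI0_F01606g in the parent libraries. In the deletion libraries 19.1% and 32% did, so the kinase gene remained in the lower part of the range. For YALI0_F01628g the share went from 7.74% and 13.2% to 56.6% and 74.7%. For YALI0_F01650g it went from 10.9% and 17.3% to 59.5% and 74.6%. The undescribed gene and the reductase gene thus ended above the middle of all genes.

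The layout of the locus is compact on one side. YALI0_F01606g and YALI0_F01628g are read away from each other across a gap of 438 bp between their coding regions, shorter than in all but 10.8% of the 1850 divergent gene pairs, whose median gap was 1480 bp. YALI0_F01628g and YALI0_F01650g are read towards each other across 1861 bp. On the far side of the kinase gene YALI0_F01584g lies 987 bp away in the same direction, and on the far side of the reductase gene YALI0_F01672g lies 4649 bp away. No other annotated feature overlapped the 3 genes or their 10 neighbours. The genome build is not given in the sources used here, and the coordinates are as deposited.

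The difference was much smaller in the genes on both sides, at most 3.23-fold upward against 33.6-fold to 66.6-fold within the locus. None of the 10 neighbours passed edgeR's quasi-likelihood test (adjusted p under 0.05), against 1.24% of all tested genes. At an unadjusted p under 0.05 there were 3, against 12.4% of all genes. DESeq2 called 1 of them, against 6.38% of all genes, and limma on TPM 0, against 3.33%. Their median log2 fold change was -0.03, beside 0.03 over all tested genes, and 5 were above and 5 below zero.

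The nearest neighbour on each side was nonetheless higher in both deletion libraries than in both parent libraries. YALI0_F01584g, similar to a putative triosephosphate isomerase of Streptomyces coelicolor, stood at 15.9 and 14 CPM in the parent libraries and at 30.7 and 64.4 CPM in the deletion libraries. Its fold change was 3.18 (log2 fold change 1.67 ± 0.46), which did not pass (adjusted p = 0.172, edgeR). It passed with DESeq2 (adjusted p = 0.0284) and when the transcript table's deletion library was left out (adjusted p = 4.79e-04), where 11.2% of all genes were called. Over 11 alternatives the adjusted p ran from 4.79e-04 to 0.847, and the log2 fold change was 1.04 when the gene table's deletion library was left out.

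On the other side YALI0_F01672g, similar to the beta-glucosidase of Kluyveromyces marxianus, which splits glucose from short sugar chains, was low throughout. It stood at 2.04 and 2.2 CPM in the parent libraries and at 5.96 and 7.78 CPM in the deletion libraries (log2 fold change 1.69 ± 0.61, adjusted p = 0.29, edgeR). The next gene out, YALI0_F01694g, was at 0.83 ± 0.44 on the log2 scale (adjusted p = 0.51). Both deletion libraries lay above both parent libraries for 3 of the 10 neighbours and below them for 2, where these shares were 22.1% and 20.2% over all tested genes.

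The remaining neighbours lay between -0.98 and 0.22 on the log2 scale. The lowest was YALI0_F01771g, similar to QCR8, a subunit of respiratory complex III, at 459 and 466 CPM in the parent and 285 and 183 CPM in the deletion libraries (log2 fold change -0.98 ± 0.42, adjusted p = 0.382). The thioredoxin gene YALI0_F01496g, similar to TRX2, was at -0.45 ± 0.38 and the gene of the mitosis inhibitor kinase Wee1, YALI0_F01716g, at 0.19 ± 0.45. YALI0_F01562g, weakly similar to a nitrogen regulator of Neurospora crassa, was at -0.47 ± 0.49. The undescribed genes YALI0_F01540g and YALI0_F01738g were at -0.26 ± 0.40 and 0.22 ± 0.43. The sign of the ratio differed between the tables for YALI0_F01562g (-1.19 and 0.59), YALI0_F01716g (-0.19 and 0.81), YALI0_F01738g (-0.53 and 0.97) and YALI0_F01518g (-0.34 and 0.48). The last of these, also undescribed, had 330 and 259 reads in the parent and the deletion library of the transcript table and 3 and 4 in those of the gene table. Its levels went with the table, and the log2 fold change between strains was -0.32 ± 1.61. It was 4.85 when the transcript table's parent library was left out and -4.56 when that table's deletion library was left out, and the latter passed (adjusted p = 1.65e-04, edgeR).

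**Figure D2:**
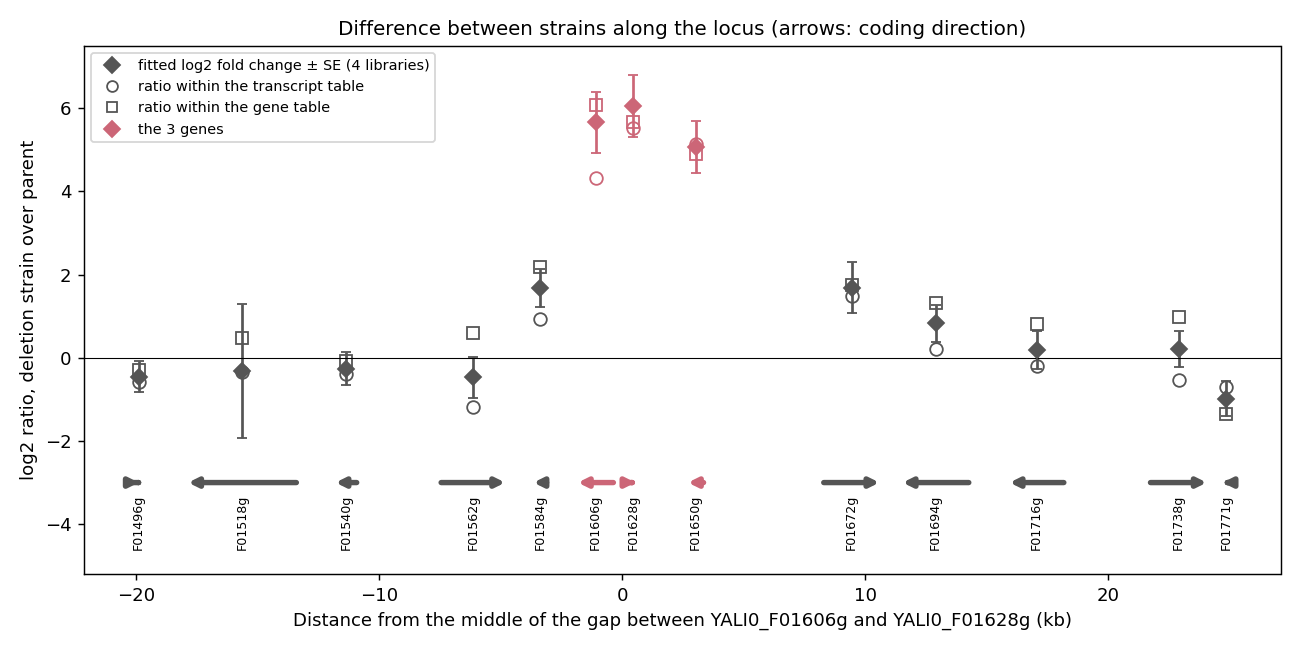
Log2 ratio of the deletion strain over the parent for the 3 genes and 5 neighbours on each side, against the distance in kb from the middle of the gap between YALI0_F01606g and YALI0_F01628g. Diamonds are fitted log2 fold changes with standard errors, circles and squares the ratios within each table after a prior count of 2, and arrows give the coding direction. The fitted values of the 3 genes lie between 5.07 and 6.06 and those of the neighbours at 1.69 or below, and the highest ratio of a neighbour within a table is 2.19, for YALI0_F01584g in the gene table.

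Most called genes had no neighbour called in the same direction. Of the 75 genes called by edgeR, 11 lay in 4 runs of adjacent genes called in the same direction, and 2 runs had at least 3 genes. The other long run lay on chromosome E from 4186069 to 4206675, where the last protein-coding gene ends at 4214922, and was lower in the deletion strain. It held YALI0_E35024g (18.6 and 12.1 CPM in the parent), the HSP70 gene YALI0_E35046g (720 and 679 CPM), YALI0_E35112g (3.85 and 3.98 CPM), weakly similar to a ferric reductase, and YALI0_E35156g (23.6 and 21.2 CPM), annotated as urea amidolyase. All of them except the HSP70 gene had 0 reads in both deletion libraries, as SUR2 did. The cause was not tested, and effects of this difference cannot be told apart from those of the labelled genotype. The run on chromosome F is only described, because the same comparison chose its genes. This run lies inside the chromosome, whose protein-coding genes span 13437 to 3992157, and each of its genes had reads in all 4 libraries. It held 3 genes in 7 of the 11 alternative settings. With DESeq2, and without the transcript table's deletion library, it held 4, with YALI0_F01584g added. When one or the other parent library was left out edgeR called 0 genes in the whole genome, with 414 and 361 at an unadjusted p under 0.05.

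Divergent neighbours in general had weakly related differences. Over the 1688 divergent pairs with both genes tested, the log2 fold changes of the genes of a pair correlated at r = 0.243, and at 0.227 without the kinase pair. It was 0.192 without the pair YALI0_E35112g and YALI0_E35156g, whose fitted fold changes have no fixed size, and 0.174 without both of these pairs, a choice made after the plot of pairs was seen. For 2356 tandem pairs r was 0.13 and for 1641 convergent pairs 0.0962. All pairs share the same 4 libraries, so these values are descriptions. YALI0_F01606g and YALI0_F01628g were the only divergent pair of which edgeR called both genes higher. Nothing is read from this, because the pair was chosen for its difference.

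**Figure D3:**
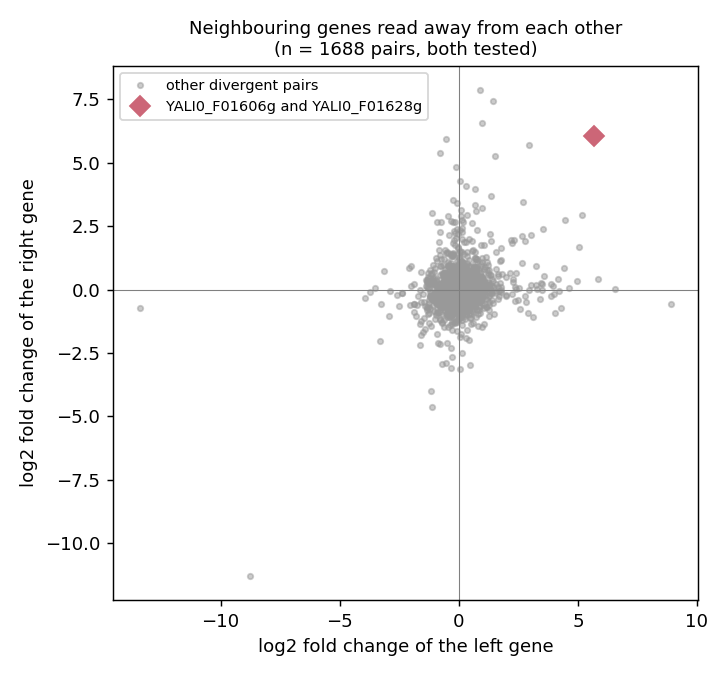
Log2 fold change of the deletion strain over the parent for the left and the right gene of each of 1688 neighbouring pairs read away from each other. The diamond is the pair of YALI0_F01606g and YALI0_F01628g, chosen for its difference, at 5.66 and 6.06, far from the mass of pairs around zero. The point farthest to the left is SUR2 with its neighbour and the lowest is the pair YALI0_E35112g and YALI0_E35156g, all of them except the neighbour of SUR2 without reads in the deletion strain.

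The annotation holds 3 genes for dihydroxyacetone kinase, and the member of the locus was the least abundant of them in the parent. YALI0_F09273g, similar to DAK1 and DAK2 of Saccharomyces cerevisiae, made up 97.9% and 98.7% of the summed TPM of the 3 genes in the parent libraries. It made up 79.8% and 80% in the deletion libraries. YALI0_F01606g contributed 0.161% and 0.101% in the parent libraries, against 6.4% and 10.5% in the deletion libraries. The summed TPM was 137 and 118 in the parent libraries, within the range of the deletion libraries at 89.3 and 171. On CPM, without the shift of scale, the sum was 352 and 410 in the parent libraries, against 219 and 355 in the deletion libraries, and these groups overlapped by a narrow margin. So the large difference of the locus gene was a small part of the kinase transcripts.

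The third kinase gene, YALI0_E20691g, was also higher in both deletion libraries. It stood at 6.71 and 4.91 CPM in the parent libraries and at 29.8 and 33.2 CPM in the deletion libraries, a 5.4-fold difference whose groups lay far apart. The log2 fold change of 2.43 ± 0.45 just missed the threshold (adjusted p = 0.0509, edgeR). It passed under 8 of 11 alternatives, in a range of 1.19e-04 to 0.661. The abundant kinase gene YALI0_F09273g stood at 344 and 405 CPM in the parent libraries and was below that in both deletion libraries, at 175 and 284 CPM. Its log2 fold change was -0.71 ± 0.42 (adjusted p = 0.581). Without sequences of these genes it was not tested whether reads of one could be counted for another.

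Dienoyl-CoA reductase is annotated for 4 genes, and the contribution of the locus was larger here. YALI0_F01650g made up 0.783% and 2.07% of the summed TPM of the 4 genes in the parent libraries and 25.9% and 25.7% in the deletion libraries. The most abundant was YALI0_C03003g in every library, with 73.1% and 81.9% in the parent libraries, against 47.2% and 55.1% in the deletion libraries. Its log2 fold change was 0.29 ± 0.44 and that of YALI0_E14322g 0.84 ± 0.42, and neither passed (adjusted p = 0.879 and 0.493, edgeR). YALI0_D01694g was low as well, at 1.39 and 0.96 TPM in the parent libraries beside 1.12 and 2.08 TPM for the locus gene. It had 1.58 and 1.44 CPM in the parent libraries and 2.75 and 5.73 CPM in the deletion libraries (log2 fold change 1.48 ± 0.70, adjusted p = 0.456).

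**Figure D4:**
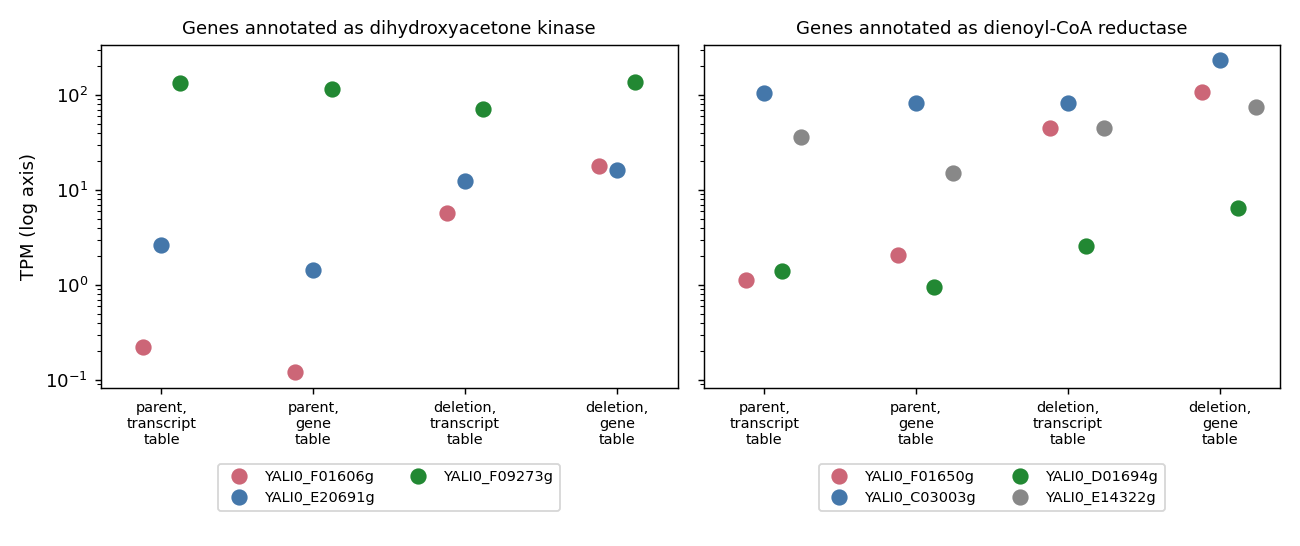
TPM on a log axis of the 3 genes annotated as dihydroxyacetone kinase (left) and the 4 annotated as dienoyl-CoA reductase (right) in each library. YALI0_F01606g goes from 0.22 and 0.12 TPM in the parent to 5.71 and 17.9 TPM in the deletion strain, below YALI0_F09273g throughout, and YALI0_F01650g goes from 1.12 and 2.08 to 45.32 and 108.37 TPM.

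Of 11 other genes of dihydroxyacetone and glycerol metabolism, all tested, 0 passed edgeR's test in either direction, against 1.24% of all tested genes. At an unadjusted p under 0.05 there were 4 higher and 1 lower, where 8.4% and 4.03% of all tested genes were. DESeq2 called 3 higher, against 4.33% of all genes, and limma on TPM called 2 higher, against 2.97%. The median log2 fold change was 0.19, against 0.03 over all tested genes.

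For the abundant genes of glycerol metabolism named next, the log2 fold changes were smaller than their standard errors. Glycerol kinase GUT1 (YALI0_F00484g), the mitochondrial glycerol-3-phosphate dehydrogenase GUT2 (YALI0_B13970g) and its cytosolic counterpart GPD1 (YALI0_B02948g) had log2 fold changes of 0.19 ± 0.43, -0.03 ± 0.43 and 0.10 ± 0.42. The main triosephosphate isomerase gene TPI1 (YALI0_F05214g) was at -0.23 ± 0.48. By p the first of the list was the kinase gene YALI0_E20691g given above and the third the locus neighbour YALI0_F01584g. The second was YALI0_D01111g, similar to STL1, a glycerol importer of Saccharomyces cerevisiae. It had 11.1 and 3.55 CPM in the parent and 74.8 and 32.4 CPM in the deletion libraries (log2 fold change 2.86 ± 0.65, adjusted p = 0.099, edgeR). It passed with DESeq2 (adjusted p = 1.97e-04), where 6.38% of all genes were called, and not with RLE factors (adjusted p = 0.0889, edgeR). With limma on log2(TPM + 1) it passed with the filter (adjusted p = 0.0272) and not without it (adjusted p = 0.0865). The other genes similar to STL1, YALI0_F06776g, YALI0_C16522g and YALI0_A08998g, had log2 fold changes of 1.39 ± 0.50, 1.90 ± 1.05 and -2.14 ± 0.87, the last 2 at low counts, and none passed.

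Of 24 other beta-oxidation genes, all tested, 0 passed edgeR's test. At an unadjusted p under 0.05 there were 1 higher and 1 lower, below the 8.4% and near the 4.03% of all tested genes. DESeq2 called 1 lower, against 2.05% of all genes, and limma on TPM called 0, against 3.33%. The median log2 fold change was 0.24. The acyl-CoA oxidase gene POX5 (YALI0_C23859g), for the first step of the cycle, had 80.4 and 50.8 CPM in the parent and 19.5 and 27.3 CPM in the deletion libraries. At a log2 fold change of -1.49 ± 0.41 it did not pass with edgeR (adjusted p = 0.172) and passed with DESeq2 (adjusted p = 0.0286), in a range of 0.0286 to 0.731. The carnitine acetyltransferase gene YALI0_B10340g, whose enzyme hands acetyl units on for transport, was at 0.94 ± 0.40 (adjusted p = 0.389). A gene weakly similar to the multifunctional enzyme FOX2 (YALI0_A02046g) was at -1.15 ± 0.51 (adjusted p = 0.41). The more abundant gene annotated as the multifunctional enzyme itself, YALI0_E15378g, was at 1.15 ± 0.52 (adjusted p = 0.426, edgeR). Another gene with some similarity to FOX2, YALI0_C19965g, was at 0.28 ± 0.36 (adjusted p = 0.845, edgeR).

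Short-chain dehydrogenases, the protein family of dienoyl-CoA reductase, were annotated as such in 7 further genes, of which 0 passed edgeR's test and 1 had an unadjusted p under 0.05, where 12.4% of all tested genes did. DESeq2 called 1 higher, against 4.33% of all genes, and limma on TPM 0, against 3.33%. The gene was YALI0_D09427g, at 3.62 and 3.13 CPM in the parent and 9.93 and 89.9 CPM in the deletion libraries. Its log2 fold change of 3.88 ± 0.93 (adjusted p = 0.119, edgeR) rests largely on the gene table's deletion library, and was 1.55 without it. YALI0_D04180g and YALI0_E05643g, next by p, were at 1.21 ± 0.76 and 0.67 ± 0.43 (adjusted p = 0.602 and 0.613). The median of the list was 0.67.

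**Figure D5:**
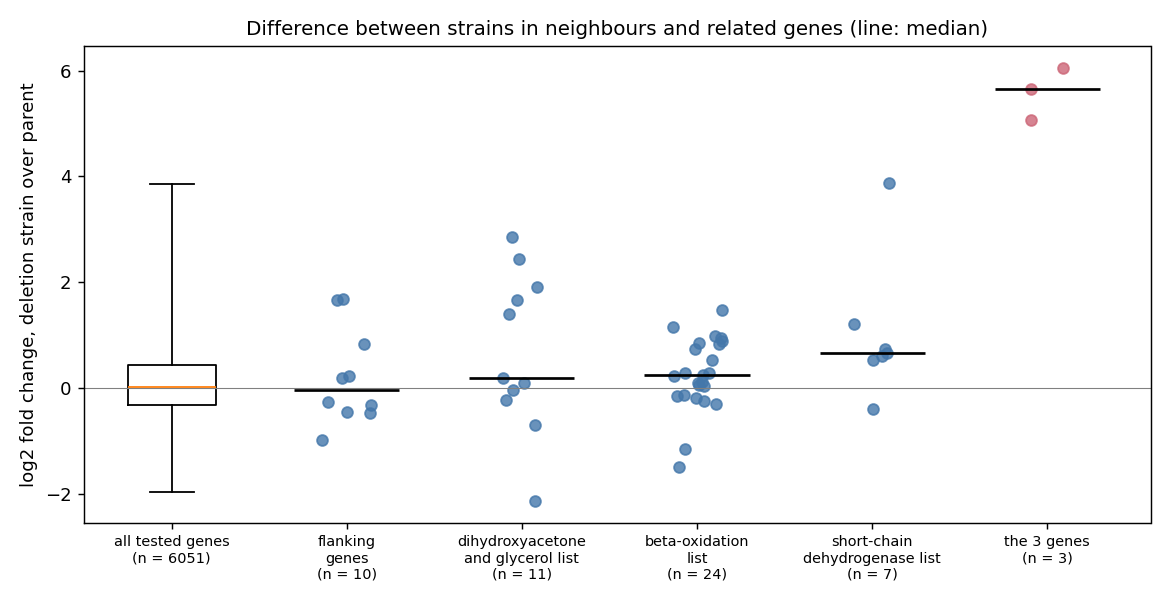
Log2 fold change of the deletion strain over the parent for the 10 flanking genes, the 3 lists of related genes without the members, and the 3 genes of the locus. The box shows the quartiles of all 6051 tested genes with whiskers at the 1st and 99th percentile, points are genes, and lines are medians. The 3 genes, which were chosen for their difference, lie above every gene of the lists, the highest of which is YALI0_D09427g at 3.88.

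The genes most like the locus over the 4 libraries lay elsewhere in the genome. Likeness was measured as the distance between the log2 CPM of a gene, centred on its own mean, and the mean of the 3 locus genes. The nearest was the ABC transporter gene YALI0_B12980g at a distance of 0.353, where the median tested gene was at 5.37. Its reads numbered 66 and 64 in the parent libraries, and 2547 and 2343 in the deletion libraries. The undescribed gene YALI0_B06160g (0.61), YALI0_F07062g, annotated as the polyamine exporter TPO1 (0.688), YALI0_B00132g near the left end of chromosome B, weakly similar to an acid protease (0.718), and YALI0_E07744g, weakly similar to the acid trehalase ATH1 (0.883), followed. YALI0_E07744g was far more abundant, with 850 and 502 reads in the parent libraries, against 12804 and 16569 in the deletion libraries. YALI0_B00132g had 0 and 0 reads in the parent libraries, and 62 and 50 in the deletion libraries, so its distance is set by the prior count of 2 and its likeness was not measured. The distance uses the same difference between strains that chose the locus, over 4 libraries only, and is a description.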

How the data were processed

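The authors deposited raw read counts for genes in one table and for transcripts in the other, per the file headers, and TPM values were also deposited by the authors. RPKM was not used. TruSeq Stranded mRNA libraries were made, per the labels' protocols. How reads were aligned and counted, and with which strand setting and annotation release, is not given in the sources used here. Counts of both tables were joined by gene identifier (8381 features), since each table held 1 library per strain, and column names give the strain but no replicate number. The strains were compared with the quasi-likelihood test of edgeR 4.0.16 (R 4.3.3), with no covariate, after filterByExpr and with TMM factors (0.8462 to 1.115), a Benjamini-Hochberg adjustment over 6051 genes and a threshold of 0.05, two-sided. A count of 3 corresponded to 0.175 to 0.307 CPM. Standard errors are fold changes divided by the root of F. Alternatives were DESeq2 1.42.0, limma 3.58.1 on log2(TPM + 1) or log2(TPM + 0.1) with a mean TPM of at least 1 or no filter, RLE factors, no count filter, the table as a term, and each library left out. Tests were tried on simulated counts with the same dispersion for all genes and no difference between tables, unlike these data, and nothing is read from this. The members, lists and naming rule (per list the called genes, at most 8, and the 3 of smallest p; all genes of both enzyme annotations; the 5 most similar patterns; other runs of at least 3 called genes) were chosen with earlier results of these data known. Lists were matched by annotation text or identifier and leave out the members.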

Additional observations from a re-analysis of the deposited data

How the results depend on the processing

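Under the 11 alternatives the log2 fold change ran from 3.27 to 6.19 for YALI0_F01606g, 5.27 to 6.81 for YALI0_F01628g and 4.49 to 5.85 for YALI0_F01650g. The same libraries chose these genes for being higher, so nothing is read from the sign. Leaving out single libraries gave 4.80 to 6.19, 5.40 to 6.81 and 4.49 to 5.85. The low value of YALI0_F01606g, 3.27, came from limma on log2(TPM + 1) with and without the filter, where changes of low genes come out smaller. The median of all genes was 0.03 with edgeR and 0.37 to 0.43 with limma on TPM. The count of genes called was 75, and 386 with DESeq2, 196 and 212 with limma on log2(TPM + 1) and log2(TPM + 0.1), and 0 to 685 with single libraries left out, 0 without either parent library. The columns carry no replicate number, so libraries could be paired only by table. With the table as a term, in the place of a replicate block, edgeR called 145 genes, and the 3 genes were at 5.47, 6.03 and 5.10. Deviations of the transcript table's libraries from their strain means correlated at 0.24 across genes. Among the 10 neighbours DESeq2 called 1, and 0 to 2 were called with single libraries left out. In the dihydroxyacetone and glycerol list 3 were called with DESeq2, 1 each with RLE factors and without the count filter, and 2 with the table as a term. The most in that list were called without the transcript table's deletion library, where the most genes were called over the whole genome too. Limma called 2 of that list at either pseudocount with its filter. On log2(TPM + 1) without the filter it called 0 of the list, and 104 genes in all. In the beta-oxidation list these were 1 with DESeq2 and 0 to 5, and in the short-chain dehydrogenase list 1 with DESeq2, 1 with limma on log2(TPM + 0.1), and 0 to 1. With a library left out, the lone library of its strain is assumed to vary like those of the other strain. The causes were not tested. For 22 other named genes, 23 of 242 values passed where edgeR's main test did not, in 7 genes, and 19 values changed sign with neither passing. Low parent counts and the spread between the deletion libraries limit how well the fold changes of the 3 genes are known.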

Other observations

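The difference between the tables at YALI0_F01518g, beside the locus, was shared with other genes. Its CPM were 75.9 and 37 times higher in the transcript table than in the gene table for the parent and the deletion strain. Of the 6051 tested genes, 24 were at least 20-fold higher in the transcript table in both strains and 1 was at least 20-fold higher in the gene table in both. The 20-fold limit was chosen after these values were seen.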
